A study of Mus musculus with 96 samples.

Results

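The genes described here are 10 immediate early genes, Egr1, Egr2, Egr3, Nab2, Srf, Nr4a1, Nr4a2, Ier2, Ier3 and Ier5, taken by symbol from a table of 15895 mouse genes, and each of the 10 symbols had 1 row. The cells were CF-1 mouse embryonic fibroblasts in primary culture, made from E13 embryos (embryonic day 13), with no allele or drug named in the labels. Fetal calf serum was held at 0.5% over 36 h and then raised to 20% at 0 h. Polyadenylated RNA was sequenced in 2 time courses, called Cycle 1, with 63 libraries that end 38 h after serum, and Cycle 2, with 32 libraries that end 27 h after serum, both starting 1 h before it. The starved group is the libraries labelled 1 h before serum and 0 h of each cycle, and every other group is 1 hour after serum. Each time was sampled once in a cycle, 29 hours after serum were sampled in both, and 0.5 h was sampled in Cycle 2 only. Nothing in the labels says how many embryos or dishes stand behind a library, so the spread between the cycles may be technical in part. All 10 genes stayed in every test, since no filter on low values was used.

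Immediate early genes are transcribed within minutes of a growth signal without new protein synthesis, mostly through ERK signalling to ternary complex factors bound beside serum response factor (Srf), and through CREB. Egr1, Egr2 and Egr3 are zinc finger transcription factors that bind GC-rich sites. Nab2 is the corepressor that binds them, and Nr4a1 and Nr4a2 are orphan nuclear receptors. Ier2, Ier3 and Ier5 encode proteins named for their early induction, of which Ier3 is known for its part in cell survival and Ier5 for its link to heat shock factor 1. In fibroblasts the transcripts of this class typically rise and fall before cells pass through G1, and most of them are short-lived.

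The values are reads on exons of a gene, scaled by the authors to the same total in every library, and they are not per length. Reads on both strands were counted, so a gene and an antisense transcript over it cannot be told apart, and since the cells were lysed in bulk, fewer expressing cells and less RNA per cell cannot be told apart either. Recovered from the smallest step in each column, the depth on the listed genes ran from 4352235 to 12551892 reads, the median library having 9375098, so that 1 read was worth 0.690 to 1.97 units. Summed over 10 fibroblast markers the starved libraries held 403611 to 569390 units and those after serum 176950 to 537147, whereas 4 macrophage markers summed to 236 to 424 and 155 to 968, 4 endothelial markers to 176 to 272 and 37.2 to 265, and 4 epithelial markers to 84.9 to 239 and 33.1 to 578, all as starved and then after serum. Muscle markers, 3 in number, summed to 609 to 1667 and 313 to 2180, and the 2 neuronal markers listed had median sums of 133 and 113. Their part in the results was not tested.

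Several libraries stood apart in these 10 genes, and the first of them are the starved libraries themselves. In both cycles the library labelled 0 h, described as taken directly before serum, already held high values of most members, while the library of 1 h before serum did not. In a limma fit with the 2 times as separate levels, a comparison added after these values had been seen, 6 of 10 members were higher at 0 h than at 1 h before serum, Egr1, Egr2, Egr3, Nr4a1, Ier2 and Ier3, against 0.428% of all genes. The same 6 were the members above 2 times their earlier value in both cycles, which 1.41% of all genes were. Over 9112 genes with a mean value above 100, 1.12% differed by 2-fold or more between the 2 starved libraries of Cycle 1 and 0.724% in Cycle 2. The cause was not tested. The comparisons below use the mean of both starved times, and the members' calls at single windows are also given against 1 h before serum alone and, at 1 h and 24 to 27 h, against 0 h alone.

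Egr1 (ENSMUSG00000038418.6, NCBIM37 chromosome 18, 35020861 to 35024638, plus strand), the first named member of its family, had the highest level of the 10 genes per length of annotated exon at 1 h in both cycles, 7336 units per kilobase in Cycle 1 and 6375 in Cycle 2. On the same scale Ier3 was next in Cycle 2, at 5419, and Nr4a1 in Cycle 1, at 5239, while Nr4a2 was lowest, at 101 and 68.0. The value of Egr1 in Cycle 1 was 3404 at 1 h before serum, 28363 at 0 h, 22740 at 1 h, 11140 at 1.5 h, 6003 at 2 h, and finally 2255 at 3 h. For Cycle 2 the values were 1760 at 1 h before serum, 18343 at 0 h, 21898 at 0.5 h, 19763 at 1 h, 11869 at 1.5 h, 7414 at 2 h, and finally 2881 at 3 h. The highest value of Cycle 1 therefore lay at 0 h, and none of its 61 libraries after serum exceeded it, whereas 2 of 30 did so in Cycle 2. Between 1 h before serum and 0 h the fitted log2 change was 3.22 ± 0.513 (SE, adjusted p = 0.000199, limma with Benjamini-Hochberg adjustment over all genes, higher in 2 of 2 cycles).

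Egr3 (ENSMUSG00000033730.2, NCBIM37 chromosome 14, 70477252 to 70479964, plus strand) was nearly silent at 1 h before serum, with a value of 13.5 in Cycle 1 (9 reads, exact 95% counting interval 6.19 to 25.7) and 4.77 in Cycle 2 (5 reads, 1.55 to 11.1). It stood at 271 at 0 h, 754 at 1 h, 552 at 1.5 h, 176 at 2 h, and finally 109 at 3 h in Cycle 1. The values of Cycle 2 were 78.3 at 0 h, 198 at 0.5 h, 395 at 1 h, 443 at 1.5 h, 233 at 2 h, and finally 152 at 3 h. Intervals cover counting error only. Its peak stood 55.7-fold over 1 h before serum in Cycle 1 and 92.9-fold in Cycle 2, more than that of any other member, and both folds rest on few reads before serum. From 13 h on its values lay between 1.88 and 25.7 in Cycle 1 and between 1.71 and 17.9 in Cycle 2 up to the last library.

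Egr2 (ENSMUSG00000037868.8, NCBIM37 chromosome 10, 66998223 to 67004936, plus strand), known for its part in Schwann cell and hindbrain development, had values of 131 at 1 h before serum, 1183 at 0 h, 1857 at 1 h, 1202 at 1.5 h, and finally 869 at 3 h in Cycle 1. Those of Cycle 2 were 83.0 at 1 h before serum, 728 at 0 h, 1230 at 0.5 h, 1613 at 1 h, 1119 at 1.5 h, and finally 682 at 3 h. It was thus high at 0 h, higher again at 1 h in both cycles, and slower to fall than Egr1. In RefSeq (GRCm38.p6) 5 starts of Egr2 have a promoter entry. The 250 bases at chr10:67537619-67537868 on the plus strand, before one of those starts, are shown because they hold a CArG box, the site Srf binds, in capitals from 72 to 63 bases before the start, and 2 places with the letters CGTCA or their reverse complement, part of the site CREB binds, also in capitals, from 111 to 107 and from 55 to 51 bases before it.
Egr2 promoter: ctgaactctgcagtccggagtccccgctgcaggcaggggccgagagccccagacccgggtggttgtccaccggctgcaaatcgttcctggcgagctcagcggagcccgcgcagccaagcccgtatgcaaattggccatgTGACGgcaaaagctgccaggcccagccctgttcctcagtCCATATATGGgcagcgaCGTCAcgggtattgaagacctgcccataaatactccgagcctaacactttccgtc

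Nab2 (ENSMUSG00000025402.5, NCBIM37 chromosome 10, 127097974 to 127105624, minus strand), which binds the Egr proteins and represses their targets, moved the other way. In Cycle 1 its value was 1083 at 1 h before serum, 887 at 0 h, 855 at 1 h, 512 at 1.5 h, 421 at 2 h, 582 at 2.5 h, and finally 630 at 3 h. In Cycle 2 it was 1579, 1472, 977, 581, 452, 440 and 571 at the same times, with 1230 at 0.5 h. The lowest values, at 2 h and at 2.5 h, were 0.389 and 0.278 of those of 1 h before serum, and they lay 1 h or more after the peak of Egr1. Nab2 then climbed, to 1133 to 1352 by 13.5 to 15.5 h in Cycle 1 and to 1227 to 1483 between 20 h and 26 h in Cycle 2. Its highest value in Cycle 1 was 2380 at 24.5 h, in a library where Srf too had its highest value, 2877, and the neighbours at 24 h and 25 h held 1673 and 1890 units of Nab2.

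Srf (ENSMUSG00000015605.5, NCBIM37 chromosome 17, 46683788 to 46693111, minus strand) encodes the MADS box factor through which much of the class is switched on, and it is itself an early target. In Cycle 1 its value was 546 at 1 h before serum, 1220 at 0 h, 1877 at 1 h, 1801 at 1.5 h, and finally 1633 at 3 h, and from 3.5 h to 10 h it lay between 1636 and 2075. In Cycle 2 it was 862 at 1 h before serum, 1079 at 0 h, 1246 at 0.5 h, 1161 at 1 h, 1183 at 1.5 h, and finally 1244 at 3 h, and the step came later, with 1639 at 4 h and 2261 at 5 h. Srf stayed above its value of 1 h before serum in every later library of both cycles. Between 11 h and 26 h its value ranged from 1789 to 2877 in Cycle 1, with a median of 2188, and from 1792 to 2251 in Cycle 2, with a median of 2007. Its promoter (RefSeq, GRCm38.p6, chr17:46556163-46556412, minus strand) is shown because it holds the most kinds of motif of the 11 entries found for these genes, marked by capitals: the reverse complement of CGTCA from 201 to 197 bases before the start, an ETS core CCGGAA from 122 to 117, an EGR site GCGNGGGCG from 101 to 93, and 2 CArG boxes from 82 to 73 and from 62 to 53.
Srf promoter: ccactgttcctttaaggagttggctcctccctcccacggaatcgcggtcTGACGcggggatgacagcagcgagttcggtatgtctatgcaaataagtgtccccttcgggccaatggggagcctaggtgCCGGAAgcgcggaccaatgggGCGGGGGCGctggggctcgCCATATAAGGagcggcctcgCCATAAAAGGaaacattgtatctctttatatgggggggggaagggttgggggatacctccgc

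Nr4a1 (ENSMUSG00000023034.6, NCBIM37 chromosome 15, 101097277 to 101105223, plus strand), also called Nur77, stepped up 25.7-fold and 12.5-fold between 1 h before serum and 0 h. In Cycle 1 its value was 278 at 1 h before serum, 7157 at 0 h, 12960 at 1 h, 3468 at 1.5 h, and finally 2181 at 2 h. In Cycle 2 it was 336 at 1 h before serum, 4192 at 0 h, 5192 at 0.5 h, 5451 at 1 h, 2498 at 1.5 h, and finally 2268 at 2 h. The fall by 2 h was followed by a second rise in both cycles. Nr4a1 reached 3430 at 5 h in Cycle 1, and in Cycle 2 it reached 5595 at 3 h, above its value at 1 h, and was still 4310 at 5 h. By 10 h it was down to 959 and 916.

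Nr4a2 (ENSMUSG00000026826.5, NCBIM37 chromosome 2, 56959241 to 56976414, minus strand), also called Nurr1 and known for its role in dopamine neurons, was expressed far lower. Its value in Cycle 1 was 42.1 at 1 h before serum, 140 at 0 h, 411 at 1 h, 425 at 1.5 h, 182 at 2 h, 174 at 2.5 h, and finally 176 at 3 h. In Cycle 2 it was 67.7 at 1 h before serum, 132 at 0 h, 157 at 0.5 h, 276 at 1 h, 269 at 1.5 h, 304 at 2 h, 440 at 2.5 h, and finally 612 at 3 h. The cycles therefore differed in the time of the peak, 1.5 h and 3 h, and in Cycle 1 a lower shoulder of 201 to 263 units stayed from 4.5 h to 9 h. Across the 91 libraries after serum the log2 ratios of Nr4a1 and Nr4a2 to the starved mean had a Pearson r of 0.79, given as a description of libraries that share a course and a scaling.

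The promoters of the Nr4a genes (RefSeq, GRCm38.p6) are shown because each holds the letters CGTCA or their reverse complement in 4 places, in capitals, which 0.137% of 32851 RefSeq promoter windows of this length do. That motif was searched after the sequences had been read, so the share is a description only. The Nr4a1 window, chr15:101266596-101266845 on the plus strand, also has in capitals an ETS core from 125 to 120 bases before the start and the reverse complement of the EGR site from 60 to 52, and the Nr4a2 window, chr2:57124004-57124253 on the minus strand, an EGR site from 74 to 66.
Nr4a1 promoter: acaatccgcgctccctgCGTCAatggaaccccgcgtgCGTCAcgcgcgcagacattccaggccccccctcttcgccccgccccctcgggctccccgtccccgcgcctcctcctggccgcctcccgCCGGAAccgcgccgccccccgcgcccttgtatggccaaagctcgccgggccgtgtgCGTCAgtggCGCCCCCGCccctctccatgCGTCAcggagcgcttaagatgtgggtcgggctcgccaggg
Nr4a2 promoter: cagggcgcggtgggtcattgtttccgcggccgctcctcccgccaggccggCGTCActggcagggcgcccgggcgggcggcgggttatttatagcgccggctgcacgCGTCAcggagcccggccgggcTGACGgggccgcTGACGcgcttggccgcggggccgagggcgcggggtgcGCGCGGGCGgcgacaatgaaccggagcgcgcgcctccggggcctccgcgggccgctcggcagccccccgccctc

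Promoter entries on chromosome 18, where Egr1 lies, were left out when those of the members were taken, so Egr1 was not searched. Of the 10 genes 7 had an entry among those taken, 11 entries in all. Over the 32851 windows, with both strands searched, the CArG box (CC, then 6 bases that are A or T, then GG) was present in 1.47%, the ETS core CCGGAA in 12.0%, the EGR site GCGNGGGCG in 4.70%, and CGTCA, which is part of the full CRE below, in 17.8%, or in 3.90% for 2 or more places. The full CRE TGACGTCA, found in 1.55%, and the AP-1 site TGANTCA, found in 6.75%, were in none of the 11 entries, and Nab2, Ier3 and Ier5 held none of the motifs searched. A match of letters is no evidence of binding.

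The 3 Ier genes differed from each other in level and time. Ier2 (ENSMUSG00000053560.4, NCBIM37 chromosome 8, 87185230 to 87186751, minus strand), a single-exon gene in the annotation, had values in Cycle 1 of 1420 at 1 h before serum, 6385 at 0 h, 2839 at 1 h, and finally 1441 at 3 h. In Cycle 2 they were 675 at 1 h before serum, 3950 at 0 h, 3213 at 0.5 h, 2365 at 1 h, and finally 1005 at 3 h. Its 0 h library held its highest value in both cycles, and none of the 61 and 30 libraries after serum exceeded it.

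Ier3 (ENSMUSG00000003541.6, NCBIM37 chromosome 17, 35958629 to 35959868, plus strand) went on rising past 0 h. In Cycle 1 its value was 326 at 1 h before serum, 2001 at 0 h, 5662 at 1 h, 3334 at 1.5 h, and finally 2289 at 3 h. For Cycle 2 they were 747 at 1 h before serum, 3693 at 0 h, 4809 at 0.5 h, 6129 at 1 h, 4052 at 1.5 h, and finally 2674 at 3 h. Both cycles peaked at 1 h, at 17.4 and 8.21 times the value of 1 h before serum.

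Ier5 (ENSMUSG00000056708.4, NCBIM37 chromosome 1, 156943497 to 156946766, minus strand), likewise annotated with 1 exon, rose latest of the 3 and started with the smallest step at 0 h. Its value in Cycle 1 was 586 at 1 h before serum, 1306 at 0 h, 5546 at 1 h, 6037 at 1.5 h, and finally 2440 at 3 h. In Cycle 2 it was 719 at 1 h before serum, 1170 at 0 h, 1601 at 0.5 h, 2604 at 1 h, 3489 at 1.5 h, and finally 2095 at 3 h. It stayed above the 0 h value in 56 of 61 and 29 of 30 libraries after serum, and above the value of 1 h before serum in every library of both cycles.

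**Figure D1:**
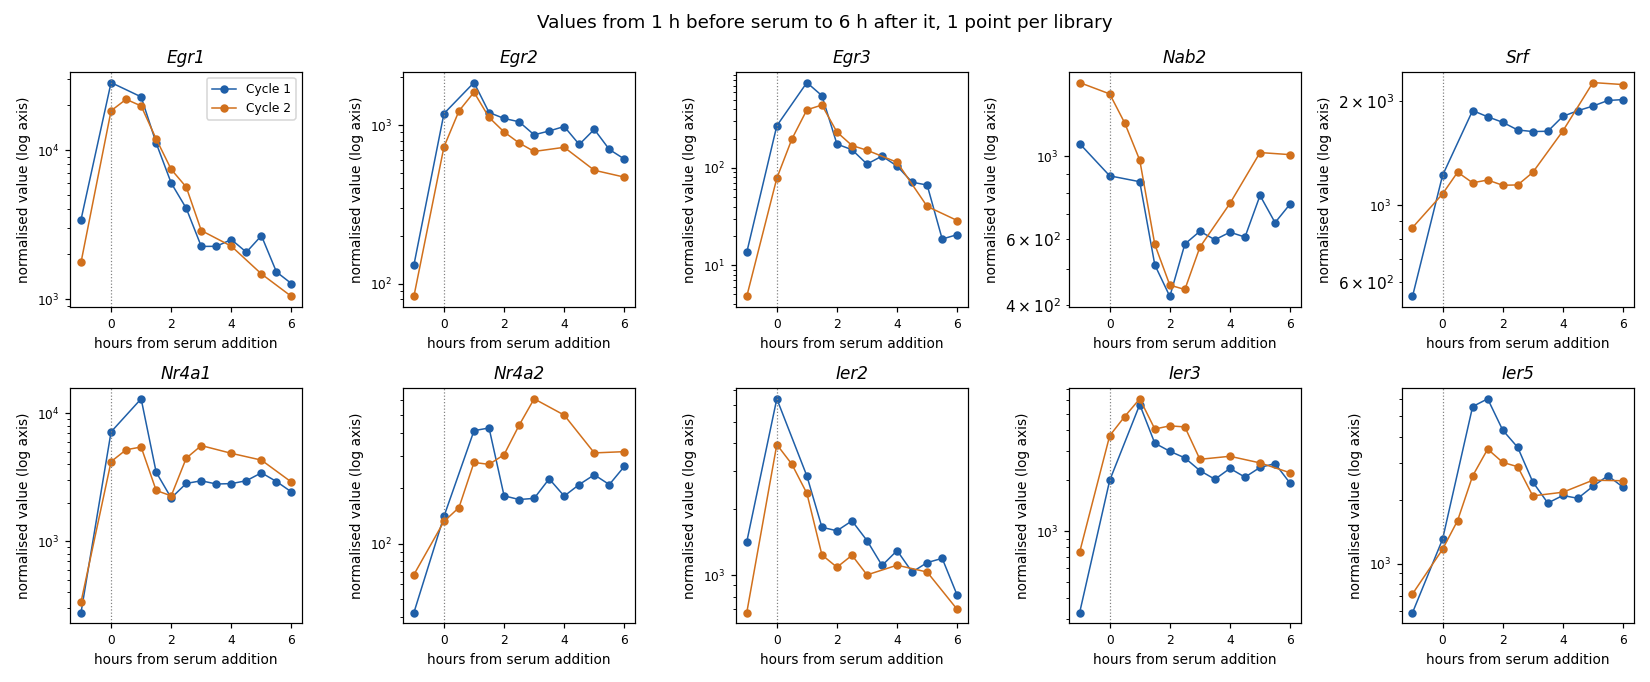
Normalised value on a log axis against hours from serum addition, over the first 6 h and the hour before serum, with a panel per gene, a point per library and a line per cycle (Cycle 1 blue, Cycle 2 orange). Egr1, Egr2, Egr3, Nr4a1, Ier2 and Ier3 step up between the library of 1 h before serum and that of 0 h in both cycles, and Nab2 has its lowest values at 2 h and 2.5 h.

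The first question of the design is which genes differ after 1 h of serum from starved cells. With all 4 starved libraries as the baseline, 6 of 10 members were higher at 1 h, Egr2, Egr3, Nr4a1, Nr4a2, Ier3 and Ier5, against 2.25% of all genes (limma, called at an adjusted p below 0.05 with a log2 change of more than 1). The median log2 change was 2.03 over the 10 members and -0.10 over all genes. Of the members called, Egr3 had the largest change, 3.90 ± 0.874 (SE, adjusted p = 0.00186, limma), and Ier5 the most precise, 2.08 ± 0.237 (SE, adjusted p = 6.66e-08, limma). The changes of Egr2, Nr4a1, Nr4a2 and Ier3 were 2.47, 2.70, 1.97 and 2.34. Each of the 6 was above the starved mean of its cycle in both cycles, by 2.41-fold in Nr4a1 of Cycle 2 at the least. Egr1 was at 1.50 ± 0.653 (adjusted p = 0.150, limma), with 22740 and 19763 units, and did not pass. Srf was at 0.73 (adjusted p = 0.0159), under the size asked for, and Ier2 at 0.22 and Nab2 at -0.42 did not pass either. Without the 1 h library of Cycle 1 the count was 3, since Egr3, Nr4a1 and Nr4a2 were lost, and without the 1 h library of Cycle 2 Srf passed with 1.02. Without the 0 h library of Cycle 1 or that of Cycle 2, Egr1 passed, with 2.12 and 1.99.

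These calls turned on which starved library was the baseline. Against 1 h before serum alone, 9 of 10 members were higher at 1 h, all but Nab2, against 2.46% of all genes, and the median change was 2.87. Egr3 was then at 5.90, Nr4a1 at 4.78, Egr2 at 4.04, Ier3 at 3.57, Egr1 at 3.11, Nr4a2 at 2.63, Ier5 at 2.55, Ier2 at 1.40 and Srf at 1.10 on the log2 scale, and Nab2 at -0.52 (adjusted p = 0.129). Against 0 h alone, Ier3 with 1.12 and Ier5 with 1.62 were the 2 members called higher, against 1.63% of all genes. Egr1 was at -0.11 and Ier2 at -0.95 in that comparison, with Egr1 below its 0 h value at 1 h in Cycle 1 and above it in Cycle 2, and Ier2 below it in both. Both baselines were chosen after the 0 h values had been seen, and they share the 1 h libraries, so their calls are not independent.

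**Figure D2:**
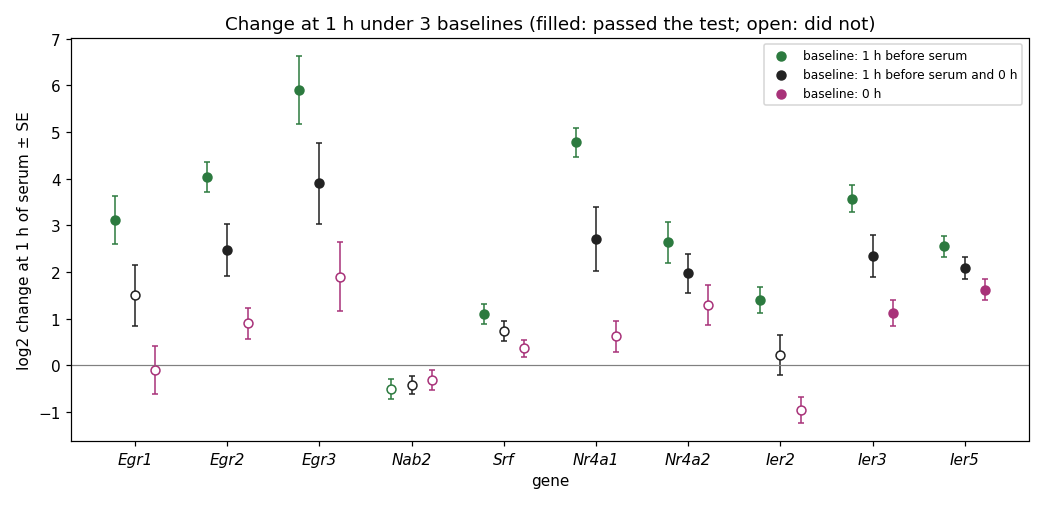
Log2 change at 1 h of serum, with its standard error from limma, for each gene against 1 h before serum (green), both starved times (black) and 0 h (magenta). Filled points passed the test and open points did not. Nr4a1 goes from 4.78 to 2.70 and 0.62 across the 3 baselines, while Ier3 and Ier5 are filled under each of them, Ier5 at 2.55, 2.08 and 1.62.

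The 0.5 h library of Cycle 2 is a single sample and carries no test. In it 5 of 10 members, Egr1, Egr2, Egr3, Nr4a1 and Ier3, were above 2 times the starved mean of the cycle, against 3.32% of all genes. Their folds over that mean ran from 2.17 in Ier3 and 2.18 in Egr1 to 4.76 in Egr3. Nr4a2 at 1.57, Ier5 at 1.69, Ier2 at 1.39, Srf at 1.28 and Nab2 at 0.806 lay inside the limits. Against the 0 h library alone the count was 1, Egr3, with 3.94% of all genes above that limit, and against 1 h before serum alone it was 8, with 4.26% of all genes.

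By the time of the highest value after serum, 6 members peaked by 1.5 h in both cycles, Egr1, Egr2, Egr3, Ier2, Ier3 and Ier5, against 11.8% of all genes. Egr1 and Ier2 had their highest value at 1 h in Cycle 1, where no 0.5 h library exists, and at 0.5 h in Cycle 2. Egr2 and Ier3 peaked at 1 h in both, Ier5 at 1.5 h in both, and Egr3 at 1 h and 1.5 h. Egr1 was under 50% of its peak by 1.5 h in Cycle 1 and 2 h in Cycle 2, and Nr4a1 by 1.5 h and 7 h. The 7 h of Nr4a1 is counted from its highest value in Cycle 2, that of the second rise at 3 h. Its first fall in Cycle 2 went from 5451 at 1 h to 2498 at 1.5 h. Ier5 was under 50% of its peak by 3 h in Cycle 1 but only by 15 h in Cycle 2, where the peak was lower. Each of these peak hours was the same with TMM and with median-ratio factors.

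**Figure D3:**
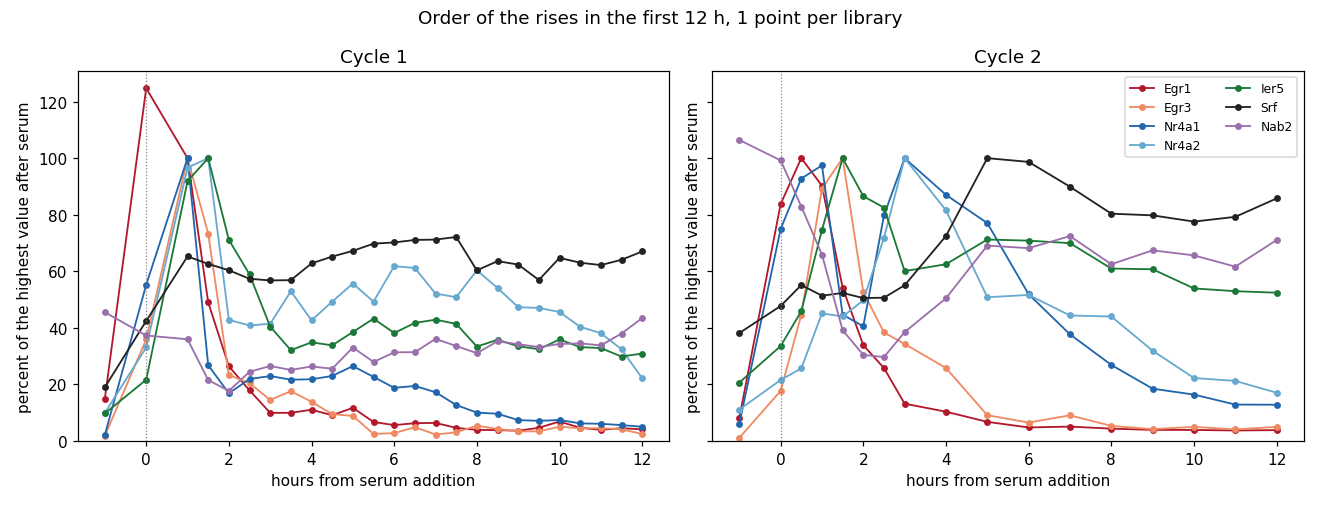
Value as a percent of the gene's highest value after serum in that cycle, against hours from serum addition up to 12 h, for Egr1, Egr3, Nr4a1, Nr4a2, Ier5, Srf and Nab2, with a panel per cycle, a colour per gene and a point per library. Egr1 and Nr4a1 drop below 50% by 1.5 h in Cycle 1, the second rise of Nr4a1 follows, and Srf of Cycle 2 reaches its highest value at 5 h. Points above 100% are Egr1 at 0 h of Cycle 1, with 28363 units, and Nab2 at 1 h before serum of Cycle 2, with 1579.

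Between 1 h and 3 h of serum, Egr1 fell by 3.06 ± 0.754 on the log2 scale (SE, adjusted p = 0.00164, limma) and was the only one of 10 members called lower, against 11.3% of all genes. Changes of -2.07 in Egr3, -1.25 in Ier3, -1.17 in Egr2, -1.11 in Ier2 and -1.04 in Nr4a1 did not pass. The spread in this fit includes the distance between the 2 starved times. With either starved time alone, which leaves the changes as they are, these 5 passed as well, which gives 6 of 10, against 11.4% of all genes with 1 h before serum. Ier2 passed also without the 0 h library of Cycle 1 or without that of 1 h before serum of Cycle 2, and Ier3 without either of the 2 remaining starved libraries, so that the count was then 2. Ier5 passed without the 1 h library of Cycle 2, at -1.28. Nr4a2 at -0.036 and Srf at -0.051 changed sign with TMM factors, at 0.12 and 0.10, and in Nr4a2 the cycles went opposite ways, from 411 to 176 and from 276 to 612.

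At 2 to 3 h the members called higher than the starved mean were again Egr2, Egr3, Nr4a1, Nr4a2, Ier3 and Ier5, 6 of 10, against 6.93% of all genes. The log2 changes were 1.50, 2.15, 1.30, 1.69, 1.42 and 1.72 in that order, and the median over the 10 members was 1.36, against -0.32 over all genes. Nab2 was the member called lower, as were 2950 of 15895 genes, so a fall at these hours was common. It fell by 1.26 ± 0.146 on the log2 scale (SE, adjusted p = 5.42e-09, limma), and it was lower at each of 2, 2.5 and 3 h in both cycles. In this and the later windows, hours of 1 course stand as separate samples. The p-values therefore do not measure the spread between independent courses. With TMM factors, under which the median of all genes was -0.04 in place of -0.32, the change of Nab2 was -0.97, just under the size asked for. In edgeR 4 of 10 were higher, against 9.37% of all genes, since Egr2 at 0.999 was just under the size asked for and Nr4a1 was at 0.38 (adjusted p = 0.483, edgeR). Egr1 was at -0.79 and Ier2 at -0.74 without passing, and their direction turned with the baseline. Against 1 h before serum alone they were at 0.82 and 0.44 and not called. Without the library of 1 h before serum of Cycle 1 or of Cycle 2 both were called lower, Egr1 at -1.21 and -1.45 and Ier2 at -1.04 and -1.24, and edgeR called Egr1 lower at -1.29. Against that baseline 7 of 10 members were higher, with Srf added at 1.03, against 6.96% of all genes. The count fell to 3 without the library of 1 h before serum of Cycle 2, where Egr2 was at 0.89, Egr3 at 1.27 and Nr4a1 at 0.64. Nr4a1 and Ier3 were not called without the one of Cycle 1, at 0.54 and 0.81, and Nr4a1 was not called without the 2.5 h or the 3 h library of Cycle 2, at 1.18 and 1.14.

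At 7 to 10 h 5 of 10 members differed from starved cells, against 24.3% of all genes. Egr1 fell by 2.86 and Ier2 by 1.85 on the log2 scale, while Srf at 1.06, Nr4a2 at 1.31 and Ier5 at 1.27 were higher. The values of Egr1 in the 8 libraries ran from 817 to 1558, below all 4 starved values, and those of Ier5 from 1882 to 2588, above all 4. Against 1 h before serum alone 8 of 10 members differed, against 23.4% of all genes, with Egr2 at 1.93, Egr3 at 1.60, Nr4a1 at 2.08 and Ier3 at 1.56 also higher. Egr1 was still lower there, at -1.25, and Ier2 at -0.67 did not pass. With both starved times edgeR called 7 of 10, against 24.7% of all genes, adding Egr3 at -1.62 and Nr4a1 at -1.09 as lower, so that the direction of these 2 genes turned with the setting. Without the library of 1 h before serum of Cycle 1, Srf at 0.80 and Nr4a2 at 0.999 were under the size asked for, and the count was 3.

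By 24 to 27 h Egr1, Egr2, Egr3 and Ier2 were lower than the starved mean and Srf higher, 5 of 10, against 25.6% of all genes. Egr1 fell by 3.50 ± 0.462 (SE, adjusted p = 8.41e-08, limma), Ier2 by 2.35, Egr3 by 1.96 and Egr2 by 1.14 on the log2 scale, and Srf stood at 1.10 ± 0.148 (SE, adjusted p = 1.32e-07, limma). Egr1 and Ier2 were also lower than at 1 h before serum alone, by 1.89 and 1.17, so their calls did not need the 0 h libraries. Egr2 at 0.43 and Egr3 at 0.046 were not. In their place Nr4a1 at 1.06 and Ier5 at 1.28 were higher, as was Srf at 1.47. That gave 5 of 10, against 24.4% of all genes. Part of the fall in Egr1 and Ier2 lay in the 27 h library of Cycle 2. In Cycle 2 Ier2 stood at 675 at 1 h before serum. It held 398, 500 and 612 at 24, 25 and 26 h, and 96.9 at 27 h. Egr1 held 684, 1254 and 1598, against 1760, and then 63.6. At 24, 25, 26 and 27 h of Cycle 1 Ier2 held 464 to 738, against 1420, and Egr1 685 to 935, against 3404. Hours 24 to 26 were not fitted against 1 h before serum alone. Against 0 h alone 7 of 10 were lower, all but Nab2, Srf and Ier5, against 17.9% of all genes. Without the 0 h library of Cycle 1 the count was 3, as Egr2 at -0.53 and Egr3 at -1.00 were lost. Egr2 was also lost without the 0 h library of Cycle 2, at -0.69, and without the 27 h library of Cycle 2, at -0.99, and Srf without 1 h before serum of Cycle 1, at 0.83. Nr4a1, at -1.02 and not called with all libraries, was called lower without either library of 1 h before serum, at -1.78 and -1.68, and without the 27 h library of Cycle 1, at -1.18. It was also called lower in edgeR, at -2.10, which gave 6 of 10 against 26.1% of all genes.

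Over all 29 shared hours the F test of limma called 10 of 10 members, against 52.5% of all genes, a share at which such a count says little. The count was 10 against 1 h before serum alone, with 51.1% of all genes, and 9 against 0 h alone, without Srf, with 50.4%. The largest change was a rise at 1 h or 1.5 h in Egr2, Egr3, Nr4a1, Nr4a2, Ier3 and Ier5, a rise of 1.37 at 19 h in Srf, a fall of 1.49 at 2 h in Nab2, and falls at 27 h in Egr1 and Ier2. At 27 h Egr1 held 729 units in Cycle 1 and 63.6 in Cycle 2, and Ier2 464 and 96.9. The hour of these falls therefore leaned on the Cycle 2 library.

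In the last libraries of both courses the members dropped again. In Cycle 2 the value of Egr1 went from 1598 at 26 h to 63.6 at 27 h, and Ier2 from 612 to 96.9. Egr1, Egr2, Nr4a1, Ier2 and Ier3 were under 0.5 times their 26 h value, 5 of 10, against 5.57% of all genes. In Cycle 1 the fall came between 32 h and 34 h. Egr1 had values of 634 to 918 from 28 h to 32 h, 452 at 33 h, and 66.4 to 247 from 34 h to 38 h. Nr4a1 went from 562 to 846 down to 62.7 to 199 over the same windows, and Egr2 from 97.1 to 142 down to 9.79 to 17.3. By the medians of the 2 windows, 5 libraries each, 7 of 10 members were under 0.5 times, all but Nab2, Nr4a2 and Ier5, against 4.69% of all genes. Egr3 among them rested on few reads. It lay at 13.2 to 15.1 units and then at 1.88 to 9.97, where 1 read was worth 1.88 units at 38 h. Egr2 too was down to few reads after the fall, with 9.79 units at 35 h, where 1 read was worth 1.96 units. Srf went from a median of 2046 to 959 and Ier5, inside the limit, from 1644 to 876. Over the 9112 genes with a mean above 100, 2.26% differed by 2-fold or more between 32 h and 34 h of Cycle 1, against 0.0329% between 30 h and 32 h, and 1.21% between 26 h and 27 h of Cycle 2, against 0.0110% between 24 h and 25 h. These windows were picked after the values had been seen and carry no test. The cause was not tested. With hours 24 to 26 in place of 24 to 27, against the mean of both starved times, Egr1, Egr3, Ier2 and Srf were still called. Egr2 at -0.86 was not.

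**Figure D4:**
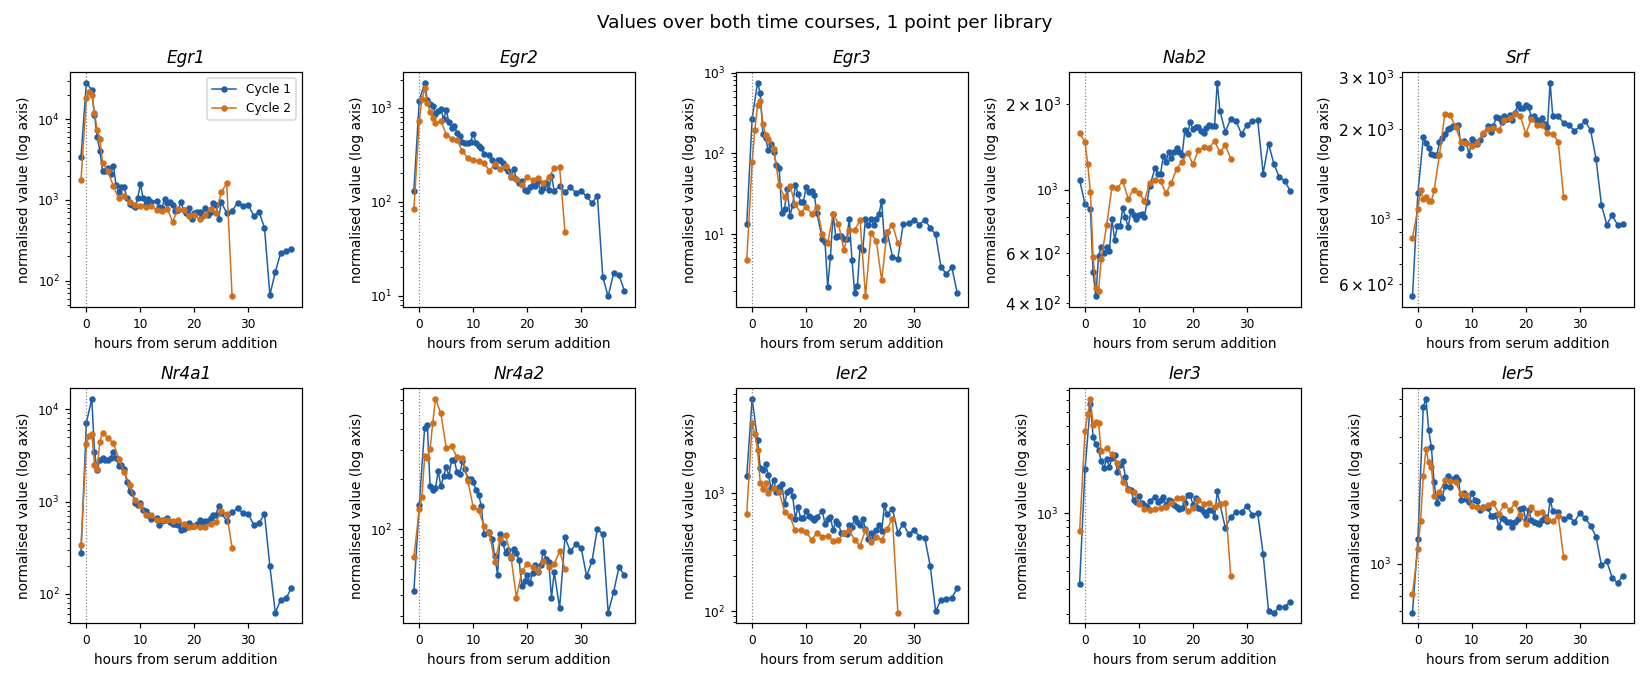
Normalised value on a log axis against hours from serum addition for all 95 libraries, with a panel per gene, a point per library and a line per cycle (Cycle 1 blue, Cycle 2 orange). Srf and Ier5 stay above their values of 1 h before serum, Nab2 climbs after its low at 2 h, and Egr1 drops to 63.6 in the last library of Cycle 2 and to between 66.4 and 247 in the last 5 of Cycle 1.

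The rise itself was compared between the cycles, as the change from starved to 1 to 1.5 h in Cycle 2 minus that in Cycle 1. None of the 10 members was called by the limma test (0 of 10, against 0.937% of all genes), and edgeR called 0, against 202 of 15895. Each cycle is 1 course, and the hours of a window stand as samples in this test. A trend within a window, or the distance between the 2 starved times, therefore adds to the spread. The lack of a call does not show that the rises were equal. At an unadjusted p under 0.05 were 2 members, as were 1306 of 15895 genes. Those 2 were Ier5, at -1.01 ± 0.310 (SE, adjusted p = 0.129, limma), and Srf, at -0.89 ± 0.256 (SE, adjusted p = 0.0881, limma), both smaller in Cycle 2. Srf passed with TMM factors, at -0.99, and both passed without the 0 h library of Cycle 1, at -1.59 for Ier5 and -1.47 for Srf, as did Ier5 without the library of 1 h before serum of Cycle 2, at -1.36. For Egr1, at 0.73 ± 1.13 (SE), the error exceeded the difference.

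Of 18 other immediate early genes, 13 were called higher at 1 h than the starved mean by limma, against 2.25% of all genes, and none lower, with a median log2 change of 1.93. In edgeR 10 were called, against 2.41% of all genes, without Fosb, Atf3 and Zfp36. At 0 h 16 of 18 were higher than at 1 h before serum, against 0.428% of all genes. Those with the largest changes at 1 h were the AP-1 subunit genes Fosb, at 4.48, and Fosl1, at 3.76, of which edgeR called Fosl1 alone, and those with the smallest were Klf2, at 0.60, and Klf6, at 0.64, which code for Kruppel-like factors and did not pass. Against 1 h before serum alone 18 of 18 were called, with 2.46% of all genes. Among the 4 relatives, Egr4, at 4.07, and Nr4a3, at 3.03, were higher and Ier5l was lower, by 2.06, while the Nab2 homologue Nab1, at 0.30, did not pass.

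None of the genes listed upstream of the class was called at 1 h, when limma called 826 of 15895 genes in either direction and edgeR 749. Of 5 cofactors of Srf, Elk1, Elk3, Elk4, Mkl1 and Mkl2, 0 were called by limma and 0 by edgeR, with 0 at an unadjusted p under 0.05, and their changes ran from -0.25 in Mkl2 to 0.37 in Elk4. Of 10 genes of the ERK pathway, kinases and the transcription factor gene Creb1, 0 were called by limma and 0 by edgeR, and the median was -0.07. At an unadjusted p under 0.05 were 2 of the 10, as were 3529 of 15895 genes, a share at which such a count says little. They were Mapk7 at -0.54 (adjusted p = 0.0142, limma) and Creb1 at -0.69 (adjusted p = 0.00153, limma). Both were lower and missed the call only by the size asked for. Map2k2 at 0.19 and Rps6ka5 at 0.13 were the highest of that list. Of 9 cytoskeletal targets of Srf, 0 were called at 1 h by either tool, with 0 at an unadjusted p under 0.05, and Actb, at 0.018, and Cnn1, at -0.44, were the ends of the range. Against 1 h before serum alone, too, 0 of the cofactor, ERK pathway and cytoskeletal genes were called at 1 h, and the calls of the 4 relatives were as above. At 24 to 27 h 6 of those 9 cytoskeletal genes were called higher than the starved mean, against 6.42% of all genes, Actb, Acta2, Tagln, Cnn1, Tpm1 and Myl9, with a median of 1.52 over the list. In that window Srf itself stood at 1.10. Of its 5 cofactors Mkl1 was called higher, at 1.56, and none of the others was called. A link between these changes was not tested.

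The 3 genes whose course was most like that of each member, by Pearson's r of the log2 ratio to the starved mean over the 91 libraries after serum, were named for each. For Egr1 they were Nfkbiz, Btg2 and Fos, with r of 0.96, 0.95 and 0.95, for Ier2 Jun, Btg2 and Junb, at 0.96, 0.91 and 0.90, and for Nr4a1 Btg2, Dusp5 and Jun, at 0.90, 0.89 and 0.89. Dusp5, a phosphatase of ERK, was also among the 3 nearest to Egr2, with C4b and St3gal4, at 0.93 each, and to Ier5, with Csrnp1 and Arid5a, at 0.87 to 0.89. Nr4a2 lay nearest to its relative Nr4a3 (0.90), then Nlrp3 and 1810011O10Rik, and Ier3 to Myc (0.94), then Ch25h and Ccrn4l. Egr3 lay nearest to Steap4, Zfp36l1 and Taf7, at 0.91 to 0.93, Srf to Metrnl, Csf1 and Ccm2, at 0.82 to 0.85, and Nab2 to H2afx, Emd and Cnn2, at 0.94 to 0.95. Libraries of a course are neighbours in time, so these values are descriptions.

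Among the members themselves, Egr2 and Ier2 and Egr1 and Ier2 had the highest r, 0.94 each, over the same 91 libraries. Such a pooled r also takes in differences between the cycles in the ratio to the starved mean. Within Cycle 1 and Cycle 2, Ier2 and Ier3 had 0.97 and 0.96, and Egr2 and Ier3 0.95 and 0.97. These lay above both named pairs, but were 0.78 and 0.76 when pooled. Nab2 ran opposite to 8 of the 9 others, from -0.79 with Egr3 to -0.25 with Ier3, and went with Srf, at 0.54. With Ier3 it was at -0.45 within Cycle 1 and -0.63 within Cycle 2. Srf was the member whose relation to the others depended on the course, with an r to Ier3 of 0.59 in Cycle 1 and -0.55 in Cycle 2, and to Egr1 of 0.33 and -0.59.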

How the data were processed

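RNA of 95 libraries from starved and serum-treated mouse embryonic fibroblasts was analysed. The authors aligned reads to mm9 with STAR, counted exons of both strands with HOMER and brought all libraries to a common total. The deposited values are this normalised signal, with 1 row per symbol that can be an average over transcripts. Of 96 columns, 1 matches no library title and was not used. Between 94.2% and 96.2% of low values were whole multiples of the value of 1 read, from which reads were recovered.

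Log2(value + 1) was fitted with limma 3.58.1 in R 4.3.3 over 62 libraries (starved and 29 shared hours), the cycle as a replicate block, 31 residual degrees of freedom, and calls at an adjusted p below 0.05 with a log2 change of more than 1. The difference of the rise between cycles used windows of hours and no size limit. edgeR 4.0.16 on recovered reads, other pseudocounts, filters, factors and left-out libraries were alternatives, and Python 3.11.15 did the rest. The cycle marks a shared time course in the labels, and deviations at 406 pairs of hours had a median correlation of 0.442, above 0.1 in 394. The limma and edgeR fits were tested on simulated data. Members, lists and tests were chosen with earlier results of these data known. The genes named are the 10 members, from each list the 2 with the largest and the 2 with the smallest change at 1 h, and the 3 genes most like each member among genes with a mean of at least 10. Members of a list that were named beyond that rule were chosen after their values were seen.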

Additional observations from a re-analysis of the deposited data

Results flagged for a closer look

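In 6 of 40 groups of libraries examined, each a gene in a window of hours with both cycles pooled, 1 library lay far from the others by Dixon's test. Chance flags about 1 in 20 groups when libraries are independent and without a trend. Here the groups span hours and the genes share libraries, so that rate is only a rough guide. The medians are over both cycles. At 7 to 10 h the 7 h library of Cycle 1 was high in Ier2, with 1074 units against a group median of 615, and in Ier3, with 2266 against 1423. At 24 to 27 h the 24 h library of Cycle 1 was high in Egr3, with 25.7 against 9.28. In the same window the 27 h library of Cycle 2 was low in Srf, with 1180 against 1987, in Nr4a1, with 317 against 726, and in Ier5, with 1078 against 1630.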

How the results depend on the processing

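Of the members' log2 changes under other settings, 981 kept their direction and their side of the threshold, 48 came to pass, 35 ceased to pass and 46 changed sign. The choice of starved library moved most. With 0 h alone, 2 members were higher at 1 h, against 1.63% of all genes, and 2 at 2 to 3 h, against 1016 of 15895. With 1 h before serum alone 8 differed at 7 to 10 h, against 23.4% of all genes. The count lower at 3 h than at 1 h was 6 with 1 h before serum alone, against 1812 of 15895 genes. It was also 6 with 0 h alone, against 1822. With a pseudocount of 10 it was 3, against 1286, and in edgeR 2, against 1467. Over genes with a mean of at least 10 it was 2, against 1594 of 12804. The counts of 2 say little beside these shares. TMM factors gave 1 member, Srf, whose rise differed between the cycles, against 186 of 15895 genes. At 0.5 h the count was 1 against 0 h, with 3.94% of all genes, and 8 against 1 h before serum, with 4.26%.

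Against 0 h alone the signs changed for Egr1 (-0.11) and Ier2 (-0.95) at 1 h, Egr2 (-0.069) and Nr4a1 (-0.78) at 2 to 3 h, and Egr2 (-1.21), Nr4a1 (-2.08) and Ier3 (-0.90) at 7 to 10 h. Against 1 h before serum alone they changed for Egr1 (0.82) and Ier2 (0.44) at 2 to 3 h, Egr3 (1.60) at 7 to 10 h, and Egr2 (0.43), Egr3 (0.046), Nr4a1 (1.06), Nr4a2 (0.16) and Ier3 (0.87) at 24 to 27 h. In edgeR they changed for Ier2 at 1 h (-0.12), for Egr2 (-0.28), Nr4a1 (-1.09) and Ier3 (-0.091) at 7 to 10 h, and between 1 h and 3 h for Srf (0.077) and Nr4a2 (0.27). Those last 2 were at 0.10 and 0.12 with TMM and at 0.12 and 0.13 with median-ratio factors, and Nr4a1 at 7 to 10 h was at -0.010 with a pseudocount of 10. The cause was not tested.

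With each library left out in turn, the counts ranged from 3 to 7 at 1 h, 3 to 6 at 2 to 3 h, 3 to 5 at 7 to 10 h, 3 to 6 at 24 to 27 h, 1 to 2 for the fall from 1 h to 3 h and 0 to 2 for the difference between cycles. Over all 15895 genes the ranges were, in that order, 190 to 388, 1040 to 1142, 3417 to 4216, 3569 to 4502, 1225 to 2062 and 65 to 173. The log2 changes that changed sign ranged from -0.28 to 0.66 in Ier2 at 1 h, and at 7 to 10 h from -0.25 to 0.98 in Egr2, -1.28 to 0.55 in Egr3, -0.76 to 0.84 in Nr4a1 and -0.27 to 0.89 in Ier3. They ranged from -0.97 to 0.19 in Ier3 at 24 to 27 h, from -0.87 to 0.80 in Nr4a2 and -0.34 to 0.23 in Srf between 1 h and 3 h, and from -0.57 to 0.18 in Nab2 between the starved times. Without the replicate block the members' counts were 6 at 1 h, 6 at 2 to 3 h, 5 at 7 to 10 h, 5 at 24 to 27 h, 1 between 1 h and 3 h, 10 over all hours and 6 between the starved times, and the block changed no call of a member. Of all 15895 genes 296, 1059, 3688, 3912, 1598, 7365 and 54 were called without the block, in the same order. Over all genes, 358 were higher and 468 lower at 1 h, against 407 and 352 with TMM factors. At 2 to 3 h 1102 were higher and 2950 lower, against 1604 and 1773, and between 1 h and 3 h 991 and 1801, against 1263 and 1343. At 1 h before serum Egr3 rested on 9 and 5 reads, so its folds from there are imprecise.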
